A study of Homo sapiens with 3 samples.

Results

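ATP-binding cassette (ABC) genes were examined in PANC-1 cells, an established human pancreatic cancer line, after exposure to ginsenoside Rg3 or tamoxifen (TAM). Members were the genes of the count table whose symbol is ABC followed by a subfamily letter from A to G and a number, leaving out ABCA1 and ABCG1, and 44 of the 51136 genes in the table met this rule. Of the 44, 26 had at least 10 counts in some library and 21 had at least 50. A further 15 had a count but stayed under 10 in every library, and 3 had no count at all.

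ABC proteins are built around a cassette that binds and hydrolyses ATP, and in most of them this cassette drives a substrate across a membrane. The B, C and G subfamilies hold the pumps known for carrying drugs and their conjugates out of cells, the A subfamily mainly moves lipids, and the D subfamily imports fatty acids into peroxisomes or handles cobalamin in lysosomes. Several B members sit in mitochondria, and the E and F members have no membrane part and act in translation. In tumour cells the efflux pumps are studied for resistance to chemotherapy, and both Rg3 and tamoxifen have been described as inhibitors of the pump P-glycoprotein, an effect on a protein that counts of mRNA do not measure.

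The study asked how each agent changes the gene expression profile of these cells. The control cells received no agent, the Rg3 cells received 200 μM for 24 h and the TAM cells received 50 μM for 24 h, and total RNA was sequenced on the Ion Proton platform. Each condition had 1 library, so no difference has a replicate check, the tests compare the reads of 2 libraries and not 2 conditions, and every interval covers counting error only. Whether the control cells received a vehicle was not given in the sources used here. Both treated libraries were set against the same control library, so the 2 comparisons are not independent.

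The libraries held between 11300766 and 12861693 counts. Counts were scaled by trimmed mean of M-values (TMM) factors, and this moved all log2 fold changes by -0.15 for Rg3 and by 0.21 for TAM relative to division by the library totals. Of 7 keratin, adhesion and mesenchymal markers of this line, KRT8 held 15329, 7817 and 14411 counts in the control, Rg3 and TAM libraries, and VIM held 55276, 39783 and 42048. KRT18 held 11216, 7406 and 13162, KRT19 held 665, 290 and 181, and KRT7 held 248, 93 and 345. The adhesion genes CDH1 (76, 39 and 5) and EPCAM (26, 26 and 8) were scarce. The pancreatic acinar and islet genes CPA1, PRSS1 and INS and the hepatocyte gene ALB had no count in any library, and PTPRC and PECAM1, of leukocytes and endothelium, had at most 1. CD68 (615, 426 and 1100) and COL1A1 (1853, 1005 and 734) were present in all 3 libraries.

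A known feature of the cassette is its signature, the amino acids leucine, serine, glycine and glycine in a row. It was found in 38 of the 43 members annotated with a coding sequence (88.4%) and in 412 of 19669 protein-coding genes (2.09%). The 60 coding bases around its first occurrence are shown 5′ to 3′ with the 12 signature bases in capitals, from the longest coding transcript of GENCODE release 29, for 9 members with at least 50 counts that passed the criteria in a treated library. They show side by side how members of 1 family spell the same residues with few or many G and C. The 9 were picked by their calls, so nothing about the fold changes is read from these stretches.
ABCE1: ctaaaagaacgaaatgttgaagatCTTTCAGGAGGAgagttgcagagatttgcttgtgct
ABCD3: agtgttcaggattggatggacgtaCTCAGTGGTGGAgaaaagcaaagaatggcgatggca
ABCC1: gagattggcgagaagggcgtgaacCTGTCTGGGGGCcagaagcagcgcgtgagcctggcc
ABCC3: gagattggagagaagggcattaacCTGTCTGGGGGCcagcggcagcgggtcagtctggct
ABCA2: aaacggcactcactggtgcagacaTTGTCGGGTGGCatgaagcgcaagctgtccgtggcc
ABCA7: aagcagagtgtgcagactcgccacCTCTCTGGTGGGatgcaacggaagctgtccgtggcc
ABCB6: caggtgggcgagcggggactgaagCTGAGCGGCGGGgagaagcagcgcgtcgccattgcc
ABCA3: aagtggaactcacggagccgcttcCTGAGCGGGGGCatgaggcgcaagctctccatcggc
ABCF3: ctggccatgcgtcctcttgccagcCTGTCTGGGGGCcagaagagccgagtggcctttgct
In ABCE1, 6 of the 12 signature bases were G or C, against 10 of 12 in ABCB6 and ABCA3. Over the 60 bases the share of G and C ran from 40.0% in ABCE1 to 71.7% in ABCB6.

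ABCC1, which encodes the multidrug resistance-associated protein MRP1, dominated the family in untreated cells. It took 13179 of the 26642 family counts in the control library, or 49.47% (95% Clopper-Pearson interval 48.86 to 50.07), while its share was 35.12% (34.47 to 35.78) with Rg3 and 27.03% (26.39 to 27.66) with TAM. The whole family received 0.236% of all counts in untreated cells, 0.160% after Rg3 and 0.168% after TAM. With ABCC1 left out, the other members together had 13463, 13306 and 13855 counts, or 1174, 921 and 1395 CPM, the usual depth-scaled unit of counts, taken here on the TMM-scaled library.

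**Figure D1:**
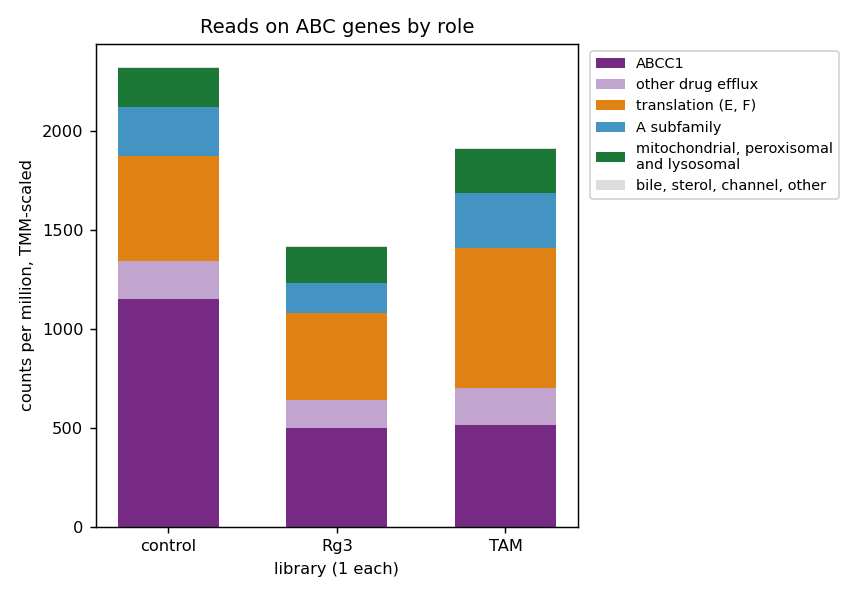
Stacked bars show TMM-scaled CPM on ABC genes in the control, Rg3 and TAM libraries (1 each), split by the role of the member. ABCC1 alone gave 1149 CPM in untreated cells, 498 after Rg3 and 517 after TAM, and the E and F subfamilies gave 535.1, 438.3 and 706.5.

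Levels were compared between members as CPM per kilobase of transcript (CPM per kb), and their intervals take the length of the chosen transcript as given. In the control library ABCC1 stood at 174 CPM per kb, followed by the translation factors ABCF1 at 66.8, ABCF3 at 48.9 and ABCF2 at 42.6, with no overlap of their intervals. ABCA3 stood at 16.1, and ABCC3 (12.15) and ABCA2 (12.1) followed with overlapping intervals. With TAM the order at the top was ABCF3 at 84.2 (80.71 to 87.80), ABCC1 at 78.4 (76.23 to 80.53) and ABCF1 at 71.9 (69.09 to 74.77), with ABCF3 and ABCC1 still apart by their intervals. ABCC3 was rank 7 in untreated cells and rank 17 with Rg3, while ABCE1 was rank 14 and 7 and ABCD3 rank 16 and 9.

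**Figure D2:**
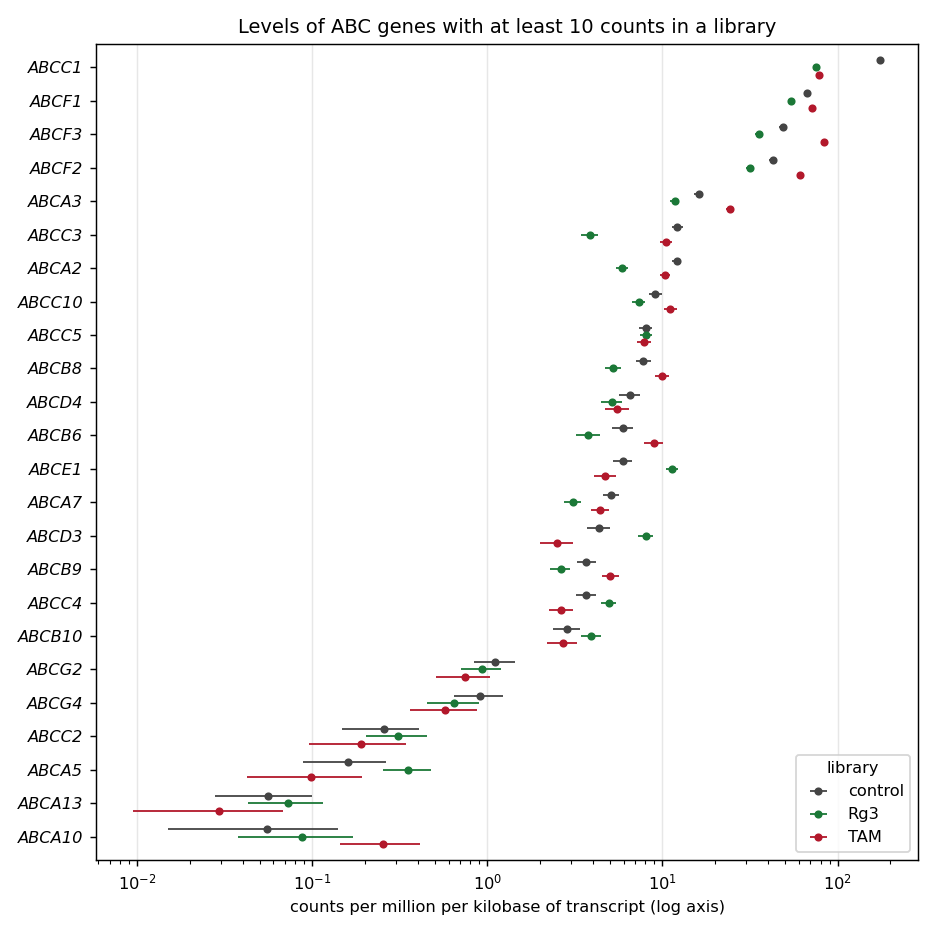
Points give CPM per kilobase of transcript (log axis) for 24 of the 26 ABC genes with at least 10 counts in a library, with 95% intervals for counting error, in the control, Rg3 and TAM libraries. ABCC1 was highest in the control library at 174, and ABCG2, at 1.11 in the control library, was rank 21 in each library.

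Genes reaching 10 counts in 1 of the libraries compared were tested, and a gene was called when its fold was over 1.5 or under 0.67 with a Benjamini-Hochberg adjusted p under 0.05 in the exact two-sided binomial test on reads. With Rg3, 4 of 25 members compared were called higher (16.0%), against 20.2% of all genes, and 5 were called lower (20.0%), against 16.2% of all genes. With TAM, 3 of 26 were called higher (11.5%), against 14.0%, and 2 were called lower (7.69%), against 18.4%. These shares were near those of all genes with Rg3 and below them with TAM, and no result about the family as a whole is read from them. By the fold alone, with no test, 4 members were higher and 5 lower with Rg3 (24.7% and 19.8% of all genes) and 3 were higher and 6 lower with TAM (17.5% and 23.7%). The median log2 fold change of the members compared was -0.34 with Rg3, where that of all genes was 0.04, and -0.17 with TAM, where that of all genes was -0.02.

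**Figure D3:**
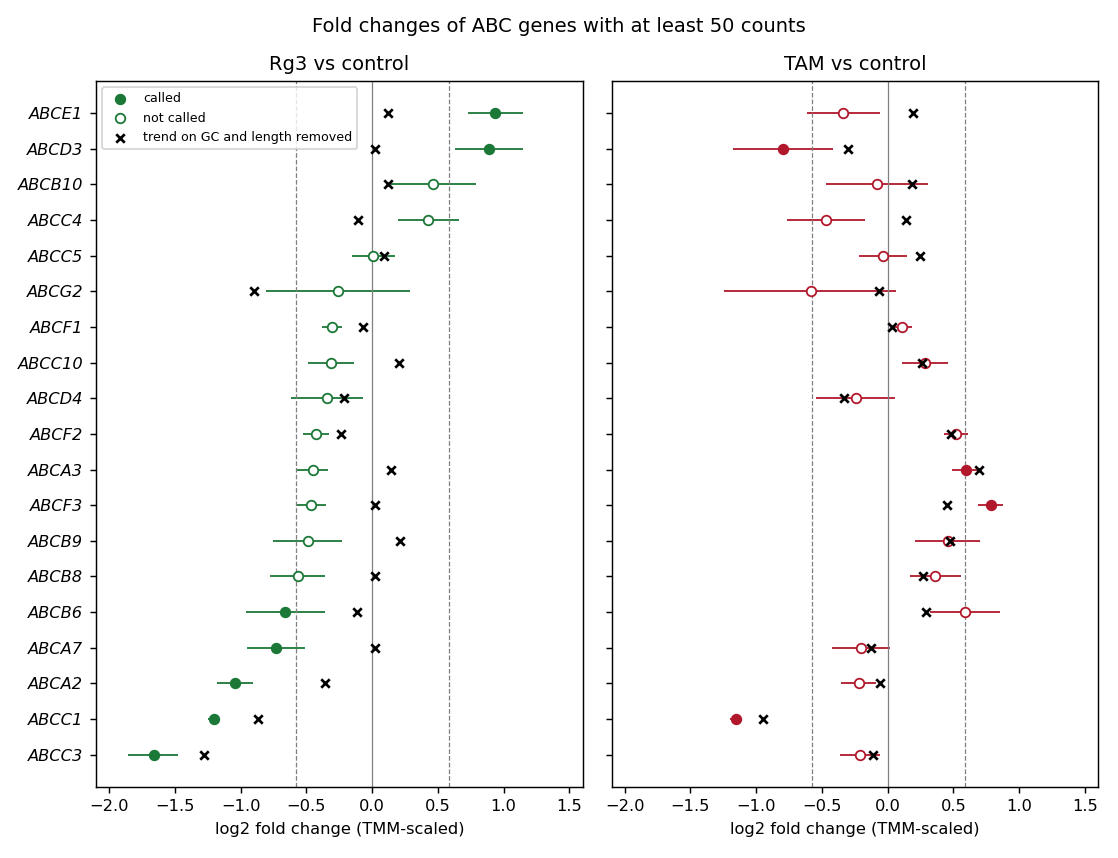
Log2 fold changes of 19 of the 21 ABC genes with at least 50 counts are shown for Rg3 and TAM against the control library, with 95% intervals for counting error, filled where called, with dashed lines at the fold limits, and crosses mark the value after a trend on GC content and transcript length was removed. ABCC3 with Rg3 was the lowest at -1.66, ABCC1 sat at -1.21 and -1.15, and its crosses stayed at -0.87 and -0.95.

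Of the 9 drug efflux pumps, 7 were compared and none was called higher by the exact binomial test with either agent, where 20.2% of all genes were with Rg3 and 14.0% with TAM. With so few pumps nothing about the group is read from this. ABCC1, on chromosome 16 (GRCh38, chr16:15949577-16143074, plus strand), exports glutathione conjugates, leukotrienes and several anticancer drugs. It held 13179 counts in untreated cells, 7203 after Rg3 and 5131 after TAM. Both treated libraries were lower than the control, with a log2 fold change of -1.21 (95% interval -1.25 to -1.16) for Rg3 and of -1.15 (-1.20 to -1.11) for TAM, or 2.31-fold and 2.23-fold lower. The call was kept for both agents with division by library totals (-1.06 and -1.36), with DESeq2 size factors (-1.20 and -1.12), at a fold limit of 2, and after a smooth trend of fold change on GC content and length of the transcript, fitted over all genes, was removed (-0.87 and -0.95). With an assumed coefficient of variation between cultures of 0.2 or 0.4 in edgeR's exact test, neither call was kept. In bulk RNA, fewer cells with the transcript and less of it per cell cannot be told apart.

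ABCC3, which encodes MRP3, a basolateral exporter of bile salts and glucuronides, lies at chr17:50634777-50692252 on the plus strand. Its counts were 796, 317 and 596, so the Rg3 library was low and the TAM library lay nearer to the control. The log2 fold change was -1.66 (-1.86 to -1.47) for Rg3, a 3.17-fold lower level, and -0.21 (-0.37 to -0.06) for TAM, which was not called. With an assumed variation of 0.2, ABCC3 with Rg3 was the 1 member of the family still called against control, and with the trend removed its value was -1.28. At an assumed variation of 0.4 no member was called against control.

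None of the remaining pumps was called against control by the exact binomial test after TMM scaling, and division by library totals gave lower calls with TAM for ABCC4 (-0.68) and ABCG2 (-0.79). ABCC4 encodes MRP4, an exporter of cyclic nucleotides and nucleotide analogues, and had 246, 417 and 154 counts. Its log2 fold changes of 0.43 with Rg3 (0.20 to 0.66) and -0.47 with TAM (-0.77 to -0.17) were not called, and with the trend removed they became -0.11 and 0.14. ABCC5, which encodes MRP5, a further exporter of cyclic nucleotides, had 544, 690 and 460 counts and values of 0.01 (-0.16 to 0.17) and -0.04 (-0.22 to 0.15), the smallest differences among the 21 members for both agents. ABCC10, which encodes MRP7, had 531, 539 and 560 counts and values of -0.31 and 0.28, neither called.

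ABCG2 encodes the breast cancer resistance protein, a pump for many drugs and for urate, and was scarce here with 57, 60 and 33 counts. Its log2 fold change was -0.26 (-0.81 to 0.29) with Rg3 and -0.58 (-1.25 to 0.06) with TAM, and both intervals included 0 under TMM scaling. The TAM value was called lower with library totals, as given above, so that reading depends on the scaling. With the trend removed the Rg3 value was -0.90 (-1.45 to -0.35) and was called, the 1 call against control that this setting added in the family. ABCC2, which encodes the apical conjugate exporter MRP2, had 17, 26 and 11 counts. ABCC11 had 5, 5 and 1, and ABCB1, the gene of P-glycoprotein, had 0, 1 and 4 counts. For ABCB1 the limit of 3 counts set for an empty library corresponds to 0.266 CPM by library total in the control, and no difference was detectable at this depth.

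Among the 11 members of the A subfamily, 5 were compared with Rg3 and 6 with TAM. ABCA2, an endosomal and lysosomal lipid transporter best known from brain, had 1130, 692 and 839 counts, and its log2 fold change was -1.04 (-1.18 to -0.90) with Rg3, which was called, and -0.22 (-0.35 to -0.09) with TAM. ABCA7, a phospholipid transporter related to ABCA1, had 398, 302 and 299 counts and was called lower with Rg3 at -0.73 (-0.95 to -0.51), with -0.21 for TAM. Once the trend on base composition and length was removed, these Rg3 values were -0.36 for ABCA2 and 0.02 for ABCA7, and neither was called.

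ABCA3, which loads surfactant phospholipids into lamellar bodies of the lung, was the A member highest per kilobase in each library. Its counts were 1221, 1126 and 1601, highest with TAM. Its log2 fold change was -0.45 (-0.57 to -0.33) with Rg3, not called, and 0.60 (0.49 to 0.71) with TAM, called at a fold of 1.51, just past the limit. Division by library totals gave 0.39 for TAM and ended the call, and removing the trend gave 0.69 and kept it.

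ABCA5 and ABCA10, neighbours on chromosome 17 whose exons overlap on the same strand, were scarce. ABCA5 had 15, 42 and 8 counts and was called higher with Rg3, and ABCA10 had 4, 8 and 16 counts and was called higher with TAM. Without the trend the ABCA10 call was kept and the ABCA5 call was not. They share sequence, since 6.78% of the stretches of 50 bases in the ABCA10 transcript occur in transcripts of other genes, mainly ABCA5. How the counting divided such reads was not given in the sources used here. ABCA13 had 11, 18 and 5 counts. ABCA4, the retinal transporter, had 5, 9 and 1, ABCA8 had 2, 2 and 1, ABCA6 had 1, 2 and 0, ABCA12 had 0, 0 and 1, and ABCA9 had none.

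Of the mitochondrial members described here, ABCB6 was called with Rg3 and ABCB8 and ABCB10 were not. ABCB6, linked to porphyrin transport, had 208, 166 and 270 counts and was called lower with Rg3 at -0.66 (-0.96 to -0.36). Its TAM value of 0.58 (0.32 to 0.85), a fold of 1.499, lay just short of the limit and was not called, while DESeq2 size factors gave 0.62 and a call. Division by library totals gave -0.51 for ABCB6 with Rg3 and ended that call. In the annotation 90.8% of the 50-base stretches of ABCB6 are shared with other genes, mainly a read-through gene, AC068946.2, that is not in the count table.

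ABCB8, part of a mitochondrial potassium channel complex, had 417, 355 and 464 counts and values of -0.57 (-0.77 to -0.36) and 0.36 (0.17 to 0.56). ABCB10, which acts in heme synthesis of red cell precursors, had 126, 219 and 103 counts and values of 0.46 (0.14 to 0.79) and -0.08 (-0.47 to 0.30). None of these 4 values was called after TMM scaling, while library totals gave 0.61 for ABCB10 with Rg3 and a higher call. After removal of the trend the Rg3 values were -0.11 for ABCB6, 0.02 for ABCB8 and 0.12 for ABCB10, and none of these was called.

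Neither lysosomal member was called with either agent. ABCB9, a peptide transporter related to the TAP genes, had 255, 229 and 303 counts and values of -0.49 and 0.46. ABCD4, which takes part in cobalamin release from lysosomes, had 224, 223 and 164 counts and values of -0.34 and -0.24.

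In peroxisomes, ABCD3 (PMP70), which imports branched and other fatty acids for beta-oxidation, had 176, 410 and 88 counts. The Rg3 library was high and the TAM library low, with log2 fold changes of 0.89 (0.63 to 1.15) and -0.79 (-1.18 to -0.42), both called. ABCD2, a further peroxisomal fatty acid importer, had 0, 3 and 0 counts. Without the trend ABCD3 stood at 0.02 with Rg3 and -0.31 with TAM, and neither call was kept.

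Of the 4 members that act in translation, ABCE1 was the 1 called with Rg3. ABCE1 splits ribosomes into subunits after termination and had 267, 644 and 183 counts, with a log2 fold change of 0.94 (0.73 to 1.15) for Rg3 and -0.34 (-0.62 to -0.06) for TAM. Without the trend these values were 0.12 and 0.19, and the Rg3 call was lost. The gene overlaps ANAPC10 and OTUD4 on the opposite strand, and whether counting used strand was not given in the sources used here. ABCB8, ABCB9 and ABCC10 also overlap genes on the opposite strand, so the same limit holds for them. Of the 50-base stretches of ABCE1, 11.6% are shared with other genes, mainly AL513175.1. For ABCB10 the share is 4.62%, mainly with ABCB10P4.

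ABCF3, a ribosome-associated protein of the F subfamily, had 1471, 1346 and 2194 counts. The TAM library stood above the other libraries, with a log2 fold change of 0.78 (0.69 to 0.88), which was called, against -0.46 (-0.57 to -0.35) for Rg3. Division by library totals gave 0.57 and removing the trend gave 0.45, and each ended the call. ABCF2 had 1732, 1624 and 2154 counts and values of -0.43 and 0.52, not called. Of its 50-base stretches 53.5% are shared with other genes, mainly AC021097.2, which is not in the table. ABCF1, which binds the initiation factor eIF2, had 2665, 2721 and 2485 counts and values of -0.30 (-0.38 to -0.23) and 0.11 (0.03 to 0.19).

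The members for bile lipids and sterols and the channel regulators were near absent. ABCG4, a sterol transporter known from brain, had 40, 36 and 22 counts and was not called in either treated library. ABCB11, the bile salt export pump, had 0, 1 and 0 counts and ABCB4, the bile phospholipid floppase, had 0, 3 and 1. ABCG5 had 0, 0 and 2 counts and ABCG8 had 1, 0 and 0, and these encode the subunits of 1 sterol exporter. ABCC9, a regulator of potassium channels, had 0, 1 and 0 counts, and its relative ABCC8 and the gene ABCC13 had none. ABCC6 had 4, 3 and 5 counts, ABCC12 had 2, 0 and 2, and ABCB5 had 0, 1 and 0.

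The fold changes of the members followed the base composition of their transcripts. The share of G and C (GC content) was taken from the longest coding transcript of each gene. Across the 21 members with at least 50 counts, Spearman's rank correlation between GC content and log2 fold change was -0.77 with Rg3 and 0.54 with TAM, and across all genes at that depth it was -0.82 (11583 genes) and 0.52 (11022 genes). With transcript length the correlation was -0.361 for Rg3 and -0.197 for TAM across these members. Across all genes at that depth it was 0.213 and -0.477. The points share the same pair of libraries, so these values describe the libraries and carry no test.

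The 6 members under 46% GC, ABCB10, ABCC4, ABCD3, ABCE1 and ABCG2 among them, had a median log2 fold change of 0.60 with Rg3, from -0.26 to 0.94, and of -0.40 with TAM. The 9 members at or above 56% GC, ABCA2, ABCA3, ABCA7, ABCB6, ABCB8, ABCB9, ABCC10 and ABCF3 among them, had a median of -0.49 with Rg3, from -1.04 to -0.31, and of 0.36 with TAM, from -0.22 to 0.78. ABCD3 and ABCE1, both called higher with Rg3, lay at 37.7% and 38.4%. ABCC1 at 54.9% and ABCC3 at 55.8% were in the middle band, where the trend over all genes at their GC content and length was -0.34 and -0.38 with Rg3. What part base composition or transcript length has in the differences was not tested.

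**Figure D4:**
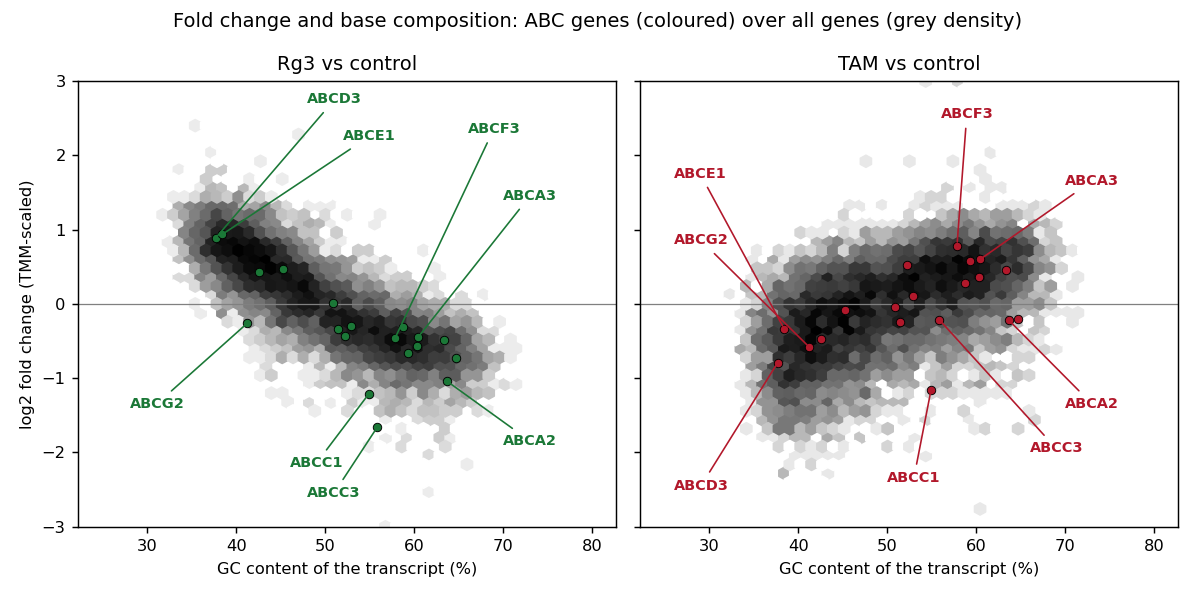
Log2 fold change (vertical axis) is plotted against GC content of the transcript (horizontal axis, %) for Rg3 and TAM, with all genes with at least 50 counts as grey density (darker where more genes lie, on a log scale) and 19 of the 21 ABC genes at that depth as coloured points. The ABC genes sloped down with Rg3 and up with TAM, ABCC1 lay at -1.21 and -1.15, and ABCC3 at -1.66 was the lowest coloured point with Rg3.

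When a smooth trend on GC content and transcript length was taken out over all genes, the rank correlation with GC content across the 21 members was 0.18 with Rg3 and 0.13 with TAM. With Rg3 no member was then called higher by the exact binomial test, where 4.66% of all genes were, and ABCC1, ABCC3 and ABCG2 were called lower, where 6.84% of all genes were. With TAM, ABCA3 and ABCA10 were called higher (10.0% of all genes) and ABCC1 was called lower (10.9% of all genes). The median of the members was then 0.02 with Rg3 and 0.16 with TAM. ABCC1 was the member called lower in both treated libraries with and without the trend.

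The treated libraries were also compared directly, at doses that differ. TAM against Rg3, 10 of 26 members were called higher (38.5%), where 27.3% of all genes were, and 5 were called lower (19.2%), where 30.7% were. By the fold alone 10 were higher and 7 lower (30.2% and 35.1% of all genes). ABCC3 was 2.74-fold higher with TAM than with Rg3 (log2 1.45, 1.25 to 1.65), ABCF3 was 2.37-fold higher (1.25, 1.15 to 1.35) and ABCA3 was 2.07-fold higher (1.05, 0.94 to 1.16). ABCD3 was 3.20-fold lower (log2 -1.68, -2.03 to -1.34) and ABCE1 was 2.42-fold lower (-1.27, -1.52 to -1.04). ABCC1 differed by 0.05 (0.00 to 0.10) and was not called.

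These directions followed GC content as well, with a rank correlation of 0.72 across the 21 members with at least 50 counts. Across all genes at that depth it was 0.79 (11595 genes). With transcript length it was 0.027 across the members and -0.402 across all genes. Called higher were 7 of the 9 members at or above 56% GC. Called lower were 4 of the 6 members under 46%, ABCC4, ABCD3 and ABCE1 among them. Shares of all genes within these bands were not computed, so nothing particular to the members is read from these counts. With the trend removed ABCC3 (1.17), ABCF2 (0.73) and ABCA10 remained called higher and no member that had been called lower remained so. That setting also called ABCG2 higher (0.84) and ABCG4 lower. TMM scaling moved all log2 values of this comparison by 0.36 relative to library totals, and with library totals 6 members were called higher and 8 lower and the median of the members went from 0.25 to -0.10.

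Solute carriers, a second large set of membrane transporters, served as the family most like this one. With Rg3, 44 of 173 solute carriers compared were called higher (25.4%) and 33 lower (19.1%), with a median of -0.07. With TAM, 35 of 174 were called higher (20.1%) and 30 lower (17.2%), with a median of 0.01. The ABC members had 16.0% and 20.0% with Rg3 and 11.5% and 7.69% with TAM, and no test between the families was run. The ABC proteins outside the rule, the antigen peptide transporter subunits TAP1 (926, 992 and 905 counts) and TAP2 (1027, 1000 and 950), were not called with either agent, and CFTR had no count.

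Genes that work beside the peroxisomal and translation members gave the following. Of 10 peroxisomal biogenesis and beta-oxidation genes, 4 were called higher with Rg3 and none lower by the exact binomial test (20.2% and 16.2% of all genes), PEX3 (87, 224 and 48 counts, log2 1.03), ACBD5 (0.85), SCP2 (0.64) and HSD17B4 (0.63). With TAM none was called higher and 2 were called lower (14.0% and 18.4% of all genes), EHHADH (-0.84) and PEX3 (-0.65), and with the trend removed no gene of this list was called with either agent. PEX3, the factor that brings membrane proteins to peroxisomes, was the only gene of the list called with both agents. Its directions were those of ABCD3, described above, and neither gene kept a call without the trend. ACAA1 (-0.275 with Rg3 and 0.266 with TAM) and PEX5 (-0.324 and 0.012) lay in the opposite directions and were not called. A link between these genes and ABCD3 was not tested.

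Of 10 genes of ribosome recycling, termination and the GCN pathway, 5 were called higher with Rg3 and 1 lower, where 20.2% and 16.2% of all genes were. DENR (235, 567 and 202 counts, log2 0.94), which acts after ABCE1 on the small subunit, and the release factors ETF1 (0.75) and GSPT1 (0.66) were among the 5, and GCN1L1, whose yeast counterpart works with an F-type ABC protein, was the 1 called lower at -0.73. With TAM, PELO, which rescues stalled ribosomes (508, 784 and 830 counts, 0.92), and EIF2D (0.62) were called higher and the kinase gene EIF2AK4 was called lower (-0.85). For 9 of the 10 a transcript was matched, GCN1L1 being the exception. Without the trend none of these 9 was called with Rg3 by the exact binomial test. With TAM 4 were then called higher (10.0% of all genes), PELO (1.245), GSPT1 (1.156), EIF2S1 (0.689) and HBS1L (0.601). The TAM calls of EIF2D (0.347) and EIF2AK4 (-0.469) were not kept.

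Of 9 genes for iron-sulfur cluster and heme synthesis, which neighbour the work of ABCB10, none was called with Rg3 by the exact binomial test. Of all genes, 20.2% were called higher and 16.2% lower with Rg3. With TAM the mitochondrial iron importer SLC25A37 (557, 528 and 786 counts, 0.70) was the 1 called, where 14.0% of all genes were called higher. Without the trend 1 was called lower with Rg3 (6.84% of all genes) and 3 higher with TAM (10.0% of all genes).

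Of 11 regulators known to control efflux genes, 9 were compared. For Rg3, 3 were called higher and 3 lower (20.2% and 16.2% of all genes). For TAM, 2 were called higher and 4 lower (14.0% and 18.4% of all genes). With so few regulators nothing about the group is read from these counts. NFE2L2 (NRF2, an activator of ABCC genes) had 473, 1208 and 245 counts, PPARA had 164, 333 and 55, and AHR had 212, 423 and 100. These 3 were called higher with Rg3 (log2 1.02, 0.69 and 0.66) and lower with TAM (-0.74, -1.37 and -0.88). RXRA (765, 526 and 1009 counts) and the oxysterol receptor gene NR1H2 (851, 666 and 1146) went the other way, lower with Rg3 (-0.87 and -0.69) and higher with TAM (0.61 and 0.64). With the trend removed NFE2L2 stayed called higher with Rg3 (0.70) and stayed called lower with TAM (-0.64), where PPARA (-0.73) and FOXO3 (-0.68) were also called lower, and no other call of this list was kept. FOXO3, a stress-responsive transcription factor, had 320, 581 and 126 counts. Before the trend was removed it was called lower with TAM (-1.137) and was not called with Rg3 (0.527). The xenobiotic receptors NR1I2 and NR1I3, known activators of ABCB1 in liver and gut, had no count in any library.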

How the data were processed

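PANC-1 cells were sequenced in 3 conditions with 1 library each, grouped from the sample labels. Alignment by the authors used TopHat, per the study's methods. The table they deposited holds unnormalized read counts by gene symbol, with GRCh38 as the build in the submitters' processing notes. The counting tool, the annotation and the use of strand were not given in the sources used here. Every column of values belonged to a mapped library. The members, gene lists and tests were chosen with earlier results of these data known.

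From the deposited counts, log2 fold changes were computed in Python 3.11.15 after TMM scaling (edgeR 4.0.16, R 4.3.3). Library totals were 11300766 (control), 12861693 (Rg3) and 11321442 (TAM), and 3 counts correspond to 0.266, 0.233 and 0.265 CPM by library total. Genes that reached 10 counts in 1 of the libraries compared entered the exact two-sided binomial test on reads (scipy 1.17.1) with Benjamini-Hochberg adjustment over all genes compared (statsmodels 0.14.6). A call needed a fold beyond the study's limits (1.5 for higher, 0.67 for lower) and an adjusted p under 0.05. Its Limma test needs replicates and could not be fitted. Counts under 3 were raised to 3 before a fold. Intervals are 95% intervals, exact Clopper-Pearson for the fold and for shares and exact Poisson on the counts for levels.

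GC content, length, positions and sequences came from the longest coding transcript of GENCODE release 29 (GRCh38), matched by symbol for all 44 members and for 86.6%, 87.2% and 86.5% of the genes compared in Rg3 against control, TAM against control and TAM against Rg3. The trend was a loess fit (span 0.3) on GC content and log2 length over genes with at least 50 counts. Shared sequence was the share of a transcript's stretches of 50 bases found in transcripts of other genes. The comparison and calling of counts were tested on simulated libraries with counting error only. TMM scaling, trend removal and variation between cultures were not part of that test. Some items are not reported here by name. Every other member with at least 10 counts in a library was named with its counts, and folds were printed from 50 counts. From the other lists up to 4 called genes per list and comparison were named by size of change. The list of efflux regulators was an exception, with more called genes named. Alternatives were library totals, DESeq2 1.42.0 size factors, filters at 1 and 50 counts, the fold alone, fold limits of 2 and 0.5, an assumed variation of 0.2 or 0.4 between cultures (edgeR's exact test) and removal of the trend.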

Additional observations from a re-analysis of the deposited data

How the results depend on the processing

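No paired analysis was possible because there is a single library per condition, and for the same reason none could be left out. DESeq2 size factors and the filters at 1 and 50 counts kept every count of calls within 1.5 times and kept the sign of each of the 3 medians and of the 19 members whose folds were listed in all 3 comparisons. Of the results below that changed, the cause was not tested beyond what each setting does by construction. With library totals, 2664 genes lower with Rg3 became 1749, TAM called 1 member higher and 5 lower and 1120 genes higher, and TAM against Rg3 called 6 members higher, 8 lower and 2718 genes higher, with a member median of -0.10. That scaling turned the sign of ABCF1 (-0.10) with TAM and of ABCC1 (-0.31) and ABCD4 (-0.26) for TAM against Rg3. The fold alone called 6 members lower with TAM. Fold limits of 2 and 0.5 left 1 member higher and 3 lower with Rg3 (1205 and 980 of all genes), 1 and 1 with TAM (705 and 1523) and 5 and 3 for TAM against Rg3 (2667 genes higher). An assumed variation of 0.2 left 0 and 1 members with Rg3 (62 and 94 of all genes), 0 and 0 with TAM (110 and 364) and 4 and 3 for TAM against Rg3 (2173 and 2908). At 0.4 no member was called in any comparison, and all genes gave 0 and 1 with Rg3, 0 and 1 with TAM, and 0 and 0 for TAM against Rg3. With the trend removed, Rg3 called 0 members higher and 3 lower (666 and 976 of all genes, member median 0.02), TAM called 1 lower (1403 and 1528, median 0.16), and TAM against Rg3 called 4 higher and 1 lower (2258 and 2047). The sign then turned with Rg3 for ABCA3 (0.15), ABCA7 (0.021), ABCB8 (0.020), ABCB9 (0.21), ABCC10 (0.21), ABCC4 (-0.11) and ABCF3 (0.019). With TAM it turned for ABCB10 (0.18), ABCC4 (0.14), ABCC5 (0.24) and ABCE1 (0.19). For TAM against Rg3 it turned for ABCA7 (-0.18), ABCB10 (0.075), ABCC1 (-0.084), ABCC4 (0.25), ABCC5 (0.16), ABCD4 (-0.12), ABCE1 (0.077) and ABCG2 (0.84). Depth limits the 18 members under 10 counts in every library, for which no fold is given.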

Other observations

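Markers of the cell line moved with the treatments beside the ABC genes, and their part in the results was not tested. Of 7 markers of PANC-1 cells, 6 were called lower with Rg3, where 16.2% of all genes were. They were led by KRT7 (248, 93 and 345 counts in the control, Rg3 and TAM libraries, log2 -1.75), KRT19 (665, 290 and 181, -1.53), KRT8 (-1.31) and CDH1 (76, 39 and 5, -1.296). With TAM, 1 of the 7 was called higher (14.0% of all genes), KRT7 at 0.68. The 3 called lower with TAM (18.4% of all genes) were CDH1, KRT19 (-1.67) and EPCAM (26, 26 and 8 counts). Without the trend on GC content and length, 4 of the 7 were called lower with Rg3 (KRT7, KRT8, KRT19 and CDH1), where 6.84% of all genes were. With TAM none was then called higher, KRT7 being at 0.19, and CDH1, KRT19 and EPCAM were again called lower (10.0% and 10.9% of all genes). Of 8 markers of other cell types, 2 had enough counts to be compared. CD68, a lysosomal protein best known from macrophages, was called lower with Rg3 (-0.86) and higher with TAM (1.05). COL1A1, a fibrillar collagen chain, was called lower in both treated libraries (-1.22 and -1.13). Without the trend COL1A1 kept both calls and CD68 kept its call with TAM (0.67) but not with Rg3 (-0.50).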
